A study of Mus musculus with 34 samples.

Results

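The 38 genes described here form the protein-folding machinery of the endoplasmic reticulum (ER) and the unfolded protein response (UPR) that adjusts it. They were chosen by function, with earlier results of these data known. Each was represented by an array probe set annotated to that gene alone, the brightest where a gene had several. By this rule 37 of the 38 genes were measured, among 22180 genes in all, and Pdia4, whose probe set is shared with a microRNA, is not analysed here. They were followed in 34 arrays of mouse spleen dendritic cells (DCs), which take up, process and present antigens.

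Proteins that enter the ER are folded by the HSP70-type chaperone BiP and its helpers, by the lectins calnexin and calreticulin, and by disulfide isomerases, and those that fail are sent back to the cytosol for ER-associated degradation (ERAD). When folding falls behind, the sensors IRE1, ATF6 and PERK raise chaperone, isomerase and ERAD transcripts through XBP1 and ATF6, while PERK slows translation and, through ATF4 and CHOP, turns on the integrated stress response. CD8+ DCs are known for cross-presentation of antigen on MHC class I and are a cell type in which the IRE1 and XBP1 branch is known to be active without an added stress.

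All mice were of the C57BL/6 strain, DCs were sorted from spleen, and the labels give no age. CD8+ DCs and CD8- DCs were profiled on 4 wild-type (WT) arrays each and on 4 arrays each of the genotype Mst1/2-KO, which lacks the Hippo kinases Mst1 and Mst2. A separate experiment on total DCs had 4 WT arrays and 3 of Mst1/2-KO, and no stimulation is given for any of these groups. In experiment 1 all DCs had received anti-CD40, which engages a receptor that activates DCs, and came from mice without Rag1, whose T and B cells do not mature. Here 4 arrays were Rag1-KO alone and 3 also lacked p38, a kinase of the stress-response family. In experiment 2, anti-CD40 had been given for 2 Rag1-KO arrays and for 1 WT array, and a further Rag1-KO array was non-stimulated. The labels name no Cre driver or deleting cell type for the Mst1/2 or p38 knockout, and nothing in them ties each array to its own animal, so p-values measure only the spread between these samples, which may be technical.

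Signals are on a log2 scale, so a difference of 1 is a 2-fold difference, and they are comparable only within an experiment. Array medians lay between 4.108 and 4.198. Stk4, which encodes Mst1, was lower in Mst1/2-KO by 0.77 ± 0.10 to 1.09 ± 0.09 log2 units (SE; limma, adjusted p between 0.000166 and 0.00154 in the 3 comparisons). Mapk14, which encodes p38 alpha, changed by 0.23 ± 0.14 (adjusted p = 0.657) in the p38 comparison. The labels do not say which p38 gene or which part of it was deleted, so this value does not check the label. The DC marker Itgax averaged 10.04 to 10.59 per group, and Cd8a averaged 12.11 in WT CD8+ DCs against 6.69 in WT CD8- DCs. A gene was called at an adjusted p under 0.05 in limma over all 22180 genes. In these bulk samples, fewer cells of a type and less RNA per cell cannot be told apart.

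Some promoters of these genes hold a known sequence element of the ER stress response. The genes were chosen as parts of that response, so a share above that of all genes is no independent finding. The ER stress response element (ERSE), the site at which ATF6 acts together with the CCAAT-binding factor NF-Y, reads CCAAT, any 9 bases, CCACG, and it was searched on both strands. RefSeq windows from 250 bases before to 50 after the start (build GRCm38.p6) were found for 34 of the 38 genes, and 9 of these 34 (26.5%) held a match, against 37 of the 27025 genes with a window (0.137%) and 39 of all 32851 windows (0.119%). The 9 genes were Hspa5, Hsp90b1, Dnajc3, Creld2, Calr, Canx, Pdia6, Syvn1 and Derl3, and Hsp90b1 alone among them held 2 matches. The stretches around these matches are printed because most of these genes are those that the arrays show to move together, and they are given 5′ to 3′ on the gene's strand with the CCAAT and CCACG bases, or their reverse complements, in capitals.
Hsp90b1 (chr10:86705523-86705666, strand -): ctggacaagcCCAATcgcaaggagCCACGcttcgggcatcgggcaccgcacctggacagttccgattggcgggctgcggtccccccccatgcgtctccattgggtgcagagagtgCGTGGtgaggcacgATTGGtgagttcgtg
Calr (chr8:84847065-84847103, strand -): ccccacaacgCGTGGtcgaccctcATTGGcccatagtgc
Canx (chr11:50325790-50325828, strand -): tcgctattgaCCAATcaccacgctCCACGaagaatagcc
Creld2 (chr15:88819510-88819548, strand +): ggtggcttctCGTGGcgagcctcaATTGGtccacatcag
Derl3 (chr10:75893232-75893270, strand +): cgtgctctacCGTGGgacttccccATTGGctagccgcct
Dnajc3 (chr14:118937817-118937855, strand +): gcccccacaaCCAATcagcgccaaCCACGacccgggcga
Hspa5 (chr2:34772015-34772053, strand +): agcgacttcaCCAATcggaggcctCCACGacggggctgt
Pdia6 (chr12:17266481-17266519, strand +): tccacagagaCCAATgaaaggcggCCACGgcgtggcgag
Syvn1 (chr19:6046522-6046560, strand +): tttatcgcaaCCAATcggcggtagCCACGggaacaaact
All of these bases lie before the annotated start, and the match that starts nearest to it is that of Syvn1, 44 bases before it. A match says only that the letters are there.

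Other elements of these stress responses were searched in the same windows. The ERSE-II element, ATTGG, any base, CCACG, was in 0.037% of all windows and in those of Herpud1 and Dnajb11. TGATGNAA, the core to which ATF4 binds with C/EBP partners, was in 3.97% of all windows and in those of Asns, Chac1, Herpud1 and Trib3, where the Asns match starts 23 bases before the start. TGACGTGG, the core of the UPR element, was in 0.676% of all windows and in none of the 34 windows here.

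In WT mice the folding and degradation genes were mostly higher in CD8+ than in CD8- DCs. Of the 37 genes, 22 rose (11% of all genes did) and 3 fell (10% of all genes did), and the CD8+ and CD8- arrays did not overlap for 23 genes on the higher side (12.2% of all genes). The median change of the 37 was 0.38 log2 units against 0.03 over all genes. By role, 8 of 9 HSP70, HSP90 and J-domain chaperones and cofactors rose, as did 6 of 7 lectins and disulfide isomerases, 5 of 9 ERAD genes, 1 of 2 translocon and ER membrane genes, 1 of 4 integrated stress response genes and 1 of 6 sensors and transcription factors. The 3 that fell were Atf6, Ddit3 and Ppp1r15a. Apart from Pdia5, the rises were small, from 1.16-fold to 1.94-fold with a median of 1.56-fold over the 22.

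**Figure D1:**
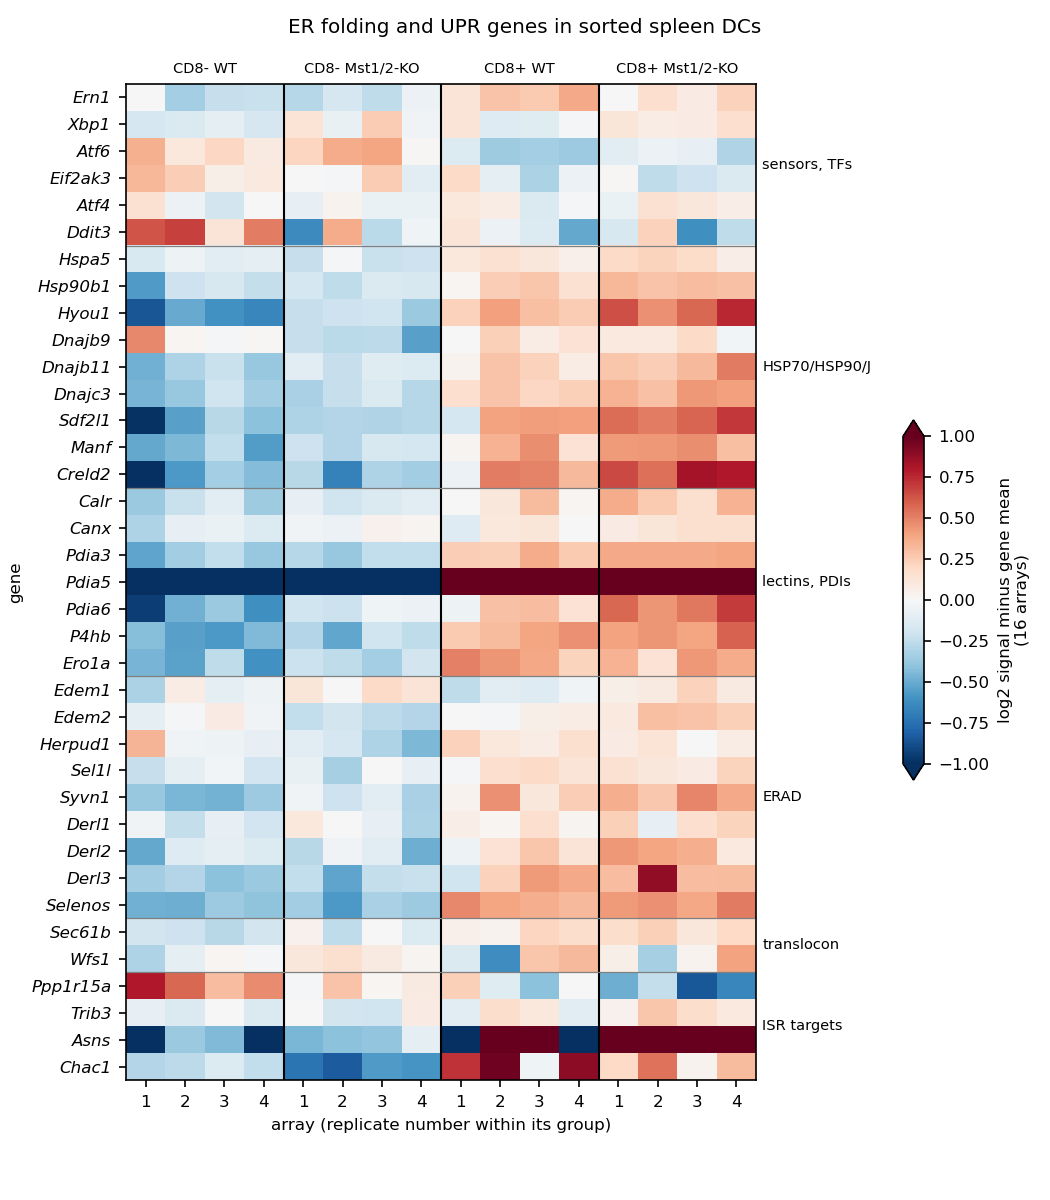
Log2 signal of the 37 genes (rows, by role) on the 16 sorted-subset arrays (columns, by group), shown as the difference from the gene's mean over the 16 arrays and coloured up to 1 in either direction. Most chaperone, isomerase and ERAD rows are blue in the CD8- arrays and red in the CD8+ arrays, Atf6, Ddit3 and Ppp1r15a run the other way in WT, and Asns splits the WT arrays.

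Among the sensors and their transcription factors, Ern1 was the 1 that rose. It encodes IRE1, the sensor that splices Xbp1, and lay at 7.64, 7.79, 7.77 and 7.89 on WT CD8+ arrays 1 to 4 and at 7.51, 7.17, 7.28 and 7.28 on WT CD8- arrays 1 to 4, a change of 0.46 ± 0.09 (adjusted p = 0.0006). Xbp1 itself, the target of that splicing, changed by 0.11 ± 0.08 (adjusted p = 0.422), and the probe set reads its total level, not its splicing. Atf6, the sensor that is cut in the Golgi, fell by 0.49 ± 0.10 (adjusted p = 0.000875), with 8.96, 8.75, 8.76 and 8.73 in CD8+ and 9.45, 9.21, 9.31 and 9.19 in CD8- DCs. The transcripts of these 2 sensors thus moved in opposite directions. Eif2ak3, which encodes PERK, changed by -0.25 ± 0.11 (adjusted p = 0.118) and Atf4 by 0.02 ± 0.08 (adjusted p = 0.899), and without CD8+ array 1 the change of Eif2ak3 was -0.34 ± 0.10 (adjusted p = 0.0277). Ddit3, which encodes CHOP, fell by 0.63 ± 0.20 (adjusted p = 0.0349) although the groups overlapped by 1 array on each side, with 8.21, 8.02, 7.94 and 7.56 in CD8+ and 8.71, 8.76, 8.21 and 8.59 in CD8- DCs. Its call ended without any 1 of 6 of the 8 arrays, CD8+ arrays 2, 3 and 4 and CD8- arrays 1, 2 and 4 (adjusted p 0.0537 to 0.121). It also ended with quantile normalization (0.0637), with every probe set tested (0.0672) and without both WT arrays numbered 1 (0.0594).

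The chaperones around BiP rose together, 8 of 9 being called. Hspa5, BiP itself, lay at 10.13, 10.17, 10.14 and 10.07 in WT CD8+ and 9.87, 9.97, 9.91 and 9.93 in WT CD8- DCs, and the arrays did not overlap. That is a rise of 0.21 ± 0.07 (adjusted p = 0.0341), and the call ended without any of CD8+ arrays 1, 2 and 3 or CD8- arrays 1, 3 and 4 (adjusted p 0.06 to 0.0864), under cyclic loess normalization (0.141), with only the compared groups fitted (0.0549), without both WT arrays numbered 1 (0.125) and with the replicate number as a block within genotype (0.0521). Hyou1, the GRP170 exchange factor that works with BiP, lay at 8.10, 8.27, 8.17 and 8.12 in CD8+ and 7.01, 7.36, 7.26 and 7.21 in CD8- DCs. It rose by 0.95 ± 0.09 (adjusted p = 1.35e-07), or 1.94-fold, the second largest rise among the 22 called. Creld2, a secreted ER-stress-inducible protein, lay at 8.11, 8.67, 8.66 and 8.48 against 7.01, 7.59, 7.83 and 7.73 and rose by 0.94 ± 0.16 (adjusted p = 0.000244). In both subsets its array 1 was the lowest of the 4.

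Sdf2l1, a partner of the J-domain chaperone ERdj3, had the values 8.11, 8.69, 8.71 and 8.70 in WT CD8+ and 7.30, 7.75, 8.01 and 7.88 in WT CD8- DCs and rose by 0.82 ± 0.14 (adjusted p = 0.000268). Array 1 was again the lowest in each subset, and the subsets still did not overlap. Manf, a BiP-binding factor secreted under ER stress, lay at 6.26, 6.58, 6.69 and 6.37 against 5.72, 5.78, 5.98 and 5.67 and rose by 0.69 ± 0.09 (adjusted p = 2.3e-05). Dnajc3 (P58IPK) rose by 0.57 ± 0.07 (adjusted p = 7.72e-06), Dnajb11 (ERdj3) by 0.50 ± 0.08 (adjusted p = 0.000165) and Hsp90b1 (GRP94, the ER HSP90) by 0.47 ± 0.09 (adjusted p = 0.00049). Dnajb9 (ERdj4), a BiP cochaperone that holds IRE1 in check, was the 1 of the 9 that did not pass the test, with a change of -0.01 ± 0.11 (adjusted p = 0.977).

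The largest difference of all was that of 1 disulfide isomerase gene. Pdia5, a protein disulfide isomerase, lay at 9.81, 9.87, 9.88 and 9.80 on the WT CD8+ arrays and at 6.02, 5.09, 5.41 and 5.30 on the WT CD8- arrays, a rise of 4.39 ± 0.19 log2 units or 20.9-fold (adjusted p = 1.13e-11). No other of the 22 rose by more than 1.94-fold, and in CD8- DCs the signal of Pdia5 was not far above the array medians. P4hb, the founding disulfide isomerase, lay at 9.39, 9.45, 9.53 and 9.59 against 8.70, 8.59, 8.56 and 8.69 and rose by 0.86 ± 0.08 (adjusted p = 2.79e-07). Ero1a, the oxidase that recharges these isomerases, lay at 8.48, 8.42, 8.36 and 8.20 against 7.51, 7.44, 7.72 and 7.37 and rose by 0.85 ± 0.09 (adjusted p = 1.06e-06). Pdia6 had the values 8.60, 8.94, 8.96 and 8.80 against 7.71, 8.17, 8.28 and 8.04 and rose by 0.77 ± 0.11 (adjusted p = 4.72e-05). Pdia3 (ERp57), which also works in MHC class I peptide loading, lay at 10.57, 10.56, 10.69 and 10.58 against 9.79, 9.97, 10.07 and 9.95 and rose by 0.65 ± 0.07 (adjusted p = 1.04e-06). Of the lectins, Calr rose by 0.38 ± 0.08 (adjusted p = 0.00305), and Canx changed by 0.17 ± 0.07 (adjusted p = 0.118), or by 0.23 ± 0.07 (adjusted p = 0.04) without CD8+ array 1.

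In ERAD, Selenos, which links the membrane complex to the p97 extractor, showed the largest rise. Its values were 10.09, 9.999, 9.97 and 9.93 in WT CD8+ and 9.13, 9.11, 9.24 and 9.21 in WT CD8- DCs, a change of 0.83 ± 0.07 (adjusted p = 8.57e-08). The ubiquitin ligase gene Syvn1 (HRD1) rose by 0.63 ± 0.09 (adjusted p = 4.42e-05) and its partner Sel1l by 0.26 ± 0.08 (adjusted p = 0.0324). Of the Derlins, the membrane channel proteins, Derl3 rose by 0.56 ± 0.14 (adjusted p = 0.0067), with 4.54, 4.98, 5.17 and 5.12 against 4.39, 4.45, 4.34 and 4.38 near the array medians. Derl2 rose by 0.34 ± 0.12 (adjusted p = 0.0461), while Derl1 changed by 0.21 ± 0.09 (adjusted p = 0.153). The calls of Derl2 and Sel1l were the weak ones: Derl2 lost its call without any of CD8+ arrays 2, 3 and 4 or CD8- arrays 1, 2 and 4 (adjusted p 0.0577 to 0.162) and Sel1l without any of CD8+ arrays 2, 3 and 4 or CD8- arrays 1 and 4 (0.0662 to 0.0941). With only the compared groups fitted, Sel1l was at 0.0508 and Derl2 at 0.057, and Derl2 also lost its call with cyclic loess (0.107), with every probe set tested (0.0776) and without both WT arrays numbered 1 (0.0836). The mannosidase-like Edem1 (-0.03) and Edem2 (0.05) and the membrane protein gene Herpud1 (0.10) did not pass the test (adjusted p = 0.863, 0.73 and 0.564). Sec61b, a subunit of the protein-conducting channel, rose by 0.33 ± 0.07 (adjusted p = 0.00323), and Wfs1, an ER membrane protein, changed by 0.06 ± 0.17 (adjusted p = 0.879).

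The targets of the integrated stress response went in different directions. Ppp1r15a (GADD34), which directs the phosphatase that ends the response, lay at 9.58, 9.22, 8.93 and 9.34 in WT CD8+ and 10.15, 9.91, 9.65 and 9.81 in WT CD8- DCs and fell by 0.61 ± 0.14 (adjusted p = 0.00432). Chac1, a glutathione-degrading enzyme, lay at 5.91, 6.16, 5.14 and 6.08 against 4.89, 4.92, 5.05 and 4.94 and rose by 0.87 ± 0.17 (adjusted p = 0.000823). CD8+ array 3 stood apart from the other 3 CD8+ arrays for Chac1. Trib3, a CHOP-induced pseudokinase, changed by 0.11 ± 0.09 (adjusted p = 0.494) at a signal near the array medians. Asns, asparagine synthetase, changed by 1.20 ± 0.68 without passing the test (adjusted p = 0.268), and its arrays are given with the other comparisons of Asns.

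Markers of other cell types moved with this comparison. Of the marker lists, 10 of 14 macrophage and monocyte genes, 9 of 10 T cell genes, 5 of 9 B cell genes, 5 of 11 plasmacytoid DC genes and 8 of 20 immediate-early and heat-shock genes fell in WT CD8+ against CD8- DCs, while 1 B cell and 1 plasmacytoid DC gene rose. The mean of the plasmacytoid DC list was 6.81 to 6.92 on WT CD8+ against 7.40 to 7.92 on WT CD8- arrays, and 6.78 to 6.90 against 8.21 to 8.65 in Mst1/2-KO. The mean of the macrophage list was 7.24 to 7.51 on CD8+ and 8.23 to 8.63 on CD8- arrays, and that of the immediate-early list 9.10 to 9.41 against 9.68 to 9.89, the latter beside the falls of Ddit3 and Ppp1r15a. Of the plasma cell markers 3 of 10 fell and none rose, with a list mean of 5.28 to 5.64 on CD8+ against 5.65 to 5.99 on CD8- arrays. Among them Jchain averaged 3.40 on CD8+ and 4.16 on CD8- arrays and Sdc1 3.73 and 3.66, near or below the array medians. This list mean is thus no measure of plasma cell content. In Mst1/2-KO 10 of 14 macrophage genes, 9 of 10 T cell genes, 7 of 11 plasmacytoid DC genes and 4 of 20 immediate-early genes fell in the same comparison. The part of these lists in the results was not tested.

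**Figure D2:**
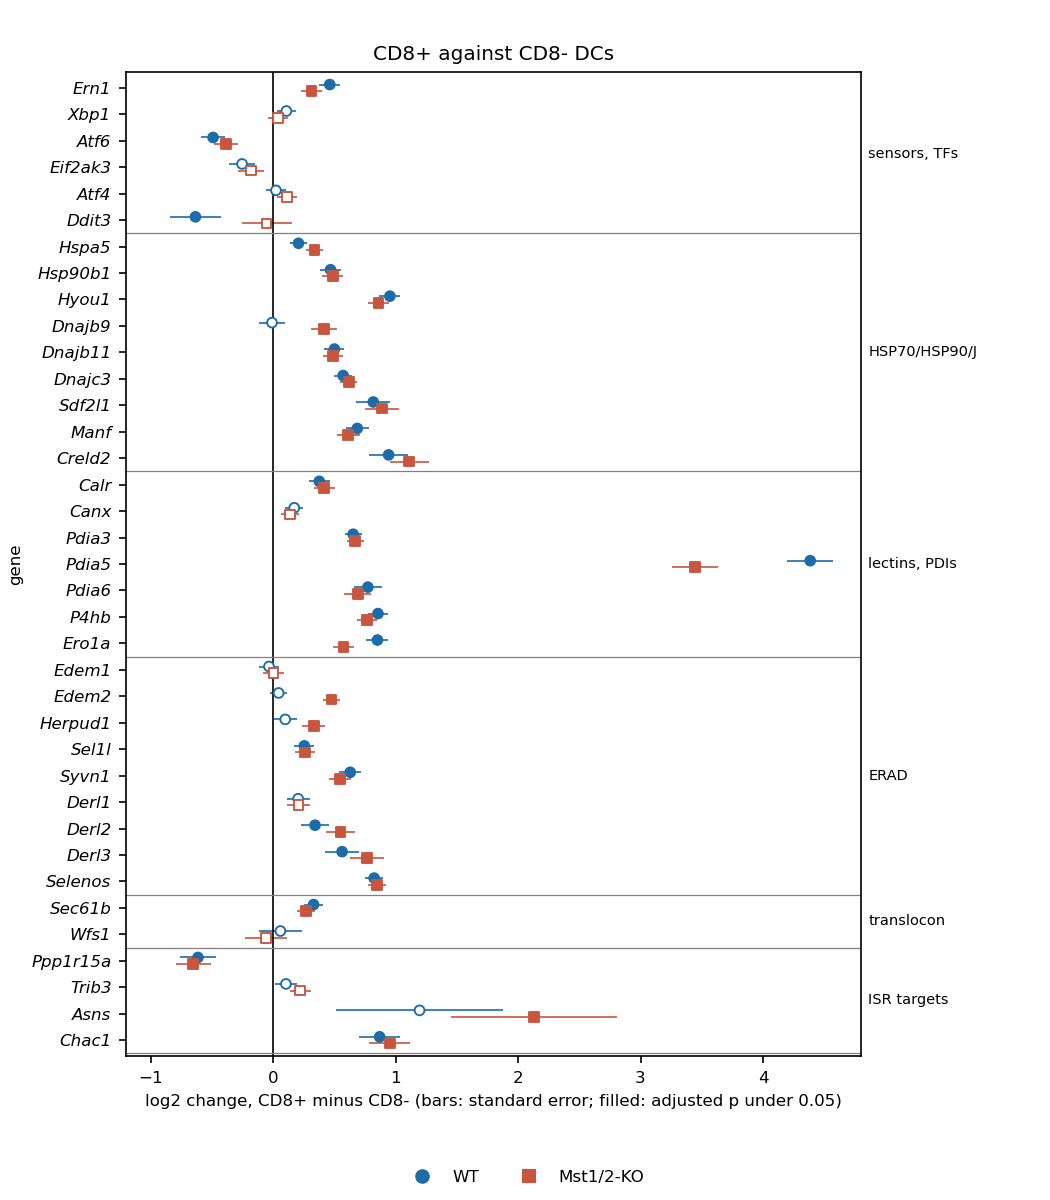
Log2 change from CD8- to CD8+ DCs for each of the 37 genes (rows, by role) in WT (circles) and Mst1/2-KO (squares), with standard errors as bars and filled symbols for an adjusted p under 0.05. Pdia5 lies far to the right at 4.39 and 3.44, most other folding genes lie to the right of 0 in both genotypes, and Edem2 and Dnajb9 lie near 0 in WT only.

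The same comparison in Mst1/2-KO mice gave 26 rises (9.93% of all genes) and 2 falls (9.3% of all genes) among the 37. It compares other arrays than the WT comparison. Both took their error from 1 fit of the sorted arrays, so the 2 tests are not independent. The 22 genes that rose in WT all rose again, Atf6 and Ppp1r15a fell again, and the arrays did not overlap for 27 genes on the higher side (12% of all genes). The median change was 0.48 log2 units against 0.03 over all genes. All 9 chaperones and cofactors rose, as did 6 of 7 lectins and isomerases and 7 of 9 ERAD genes. Pdia5 lay at 9.87, 9.89, 9.58 and 9.93 in Mst1/2-KO CD8+ and 6.52, 5.74, 6.68 and 6.55 in CD8- DCs, a rise of 3.44 ± 0.19 or 10.9-fold (adjusted p = 3.06e-10). Creld2 lay at 8.82, 8.72, 8.99 and 8.97 against 7.89, 7.49, 7.85 and 7.82, a rise of 1.11 ± 0.16 (adjusted p = 4.68e-05). Sdf2l1 lay at 8.85, 8.80, 8.87 and 8.998 against 7.98, 7.998, 7.99 and 8.003, a rise of 0.89 ± 0.14 (adjusted p = 0.000124). In Mst1/2-KO, array 1 was the lowest of neither gene in CD8+ DCs.

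Hyou1 lay at 8.51, 8.33, 8.44 and 8.62 in Mst1/2-KO CD8+ and 7.63, 7.66, 7.67 and 7.49 in CD8- DCs and rose by 0.86 ± 0.09 (adjusted p = 5.49e-07). Selenos lay at 10.03, 10.06, 9.995 and 10.13 against 9.26, 9.03, 9.28 and 9.24 and rose by 0.85 ± 0.07 (adjusted p = 6.51e-08). P4hb lay at 9.53, 9.57, 9.52 and 9.72 against 8.84, 8.61, 8.93 and 8.88 and rose by 0.77 ± 0.08 (adjusted p = 1.15e-06). All 3 were apart between the subsets on every array. Pdia6 lay at 9.23, 9.10, 9.18 and 9.35 against 8.45, 8.44, 8.61 and 8.59 and rose by 0.69 ± 0.11 (adjusted p = 0.000169). Pdia3 was nearly constant within each subset, at 10.70, 10.70, 10.70 and 10.71 against 10.04, 9.95, 10.07 and 10.07, and rose by 0.67 ± 0.07 (adjusted p = 8.05e-07). Derl3 lay at 5.06, 5.63, 5.06 and 5.06 against 4.50, 4.22, 4.51 and 4.52 and rose by 0.77 ± 0.14 (adjusted p = 0.00057), CD8+ array 2 being the highest. Chac1 lay at 5.38, 5.73, 5.22 and 5.50 against 4.45, 4.35, 4.62 and 4.60 and rose by 0.95 ± 0.17 (adjusted p = 0.000373). Ppp1r15a lay at 8.85, 9.10, 8.49 and 8.69 against 9.32, 9.63, 9.37 and 9.43 and fell by 0.65 ± 0.14 (adjusted p = 0.00289).

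Further rises in Mst1/2-KO were those of Dnajc3 (0.62 ± 0.07), Manf (0.61 ± 0.09), Ero1a (0.58 ± 0.09), Syvn1 (0.55 ± 0.09), Derl2 (0.55 ± 0.12), Dnajb11 (0.49 ± 0.08), Hsp90b1 (0.49 ± 0.09), Calr (0.42 ± 0.08), Hspa5 (0.34 ± 0.07), Ern1 (0.31 ± 0.09), Sec61b (0.27 ± 0.07) and Sel1l (0.26 ± 0.08), with adjusted p from 3.35e-06 to 0.0292. Edem2 (0.48 ± 0.07, adjusted p = 3.25e-05), Dnajb9 (0.42 ± 0.11, adjusted p = 0.0091), Herpud1 (0.33 ± 0.10, adjusted p = 0.0196) and Asns (2.13 ± 0.68, adjusted p = 0.0344) rose here and did not pass the test in WT. Atf6 fell by 0.38 ± 0.10 (adjusted p = 0.00692), and Ddit3, called in WT, changed by -0.05 ± 0.20 (adjusted p = 0.911). Xbp1, Eif2ak3, Atf4, Canx, Edem1, Derl1, Wfs1 and Trib3 did not pass the test in either genotype, although Derl1 did in Mst1/2-KO without CD8+ array 2 (0.28 ± 0.09, adjusted p = 0.0496). A dimmer probe set of Sec61b (mean signal 4.21) changed by -0.09 ± 0.09 in Mst1/2-KO, against the sign of the brighter one, and with the mean of both its adjusted p was 0.485. Leaving out 1 array ended the Asns call in 8 of 8 cases (adjusted p 0.0513 to 0.0796), the Herpud1 call without CD8+ array 2 or CD8- arrays 3 or 4 (0.0512 to 0.0746), the Sel1l call without CD8+ arrays 1 or 4 or CD8- array 2 (0.0617 to 0.108), the Ern1 call without CD8- array 1 (0.0501) and the Sec61b call without CD8- array 2 (0.06). The change of Asns stayed between 2.04 and 2.25 in those 8 cases. Its adjusted p was 0.0721 with every probe set tested, 0.0837 with a trended, robust variance and 5.18e-07 with only the compared groups fitted. The main fit takes 1 spread per gene from all sorted arrays, and Asns lay between 3.20 and 7.45 on the WT arrays. In Mst1/2-KO it lay at 7.03 to 7.65 in CD8+ and 5.13 to 5.50 in CD8- DCs. With only the compared groups, Sel1l (0.0652) and Sec61b (0.0508) also lost their calls.

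Whether the genotype effect differed between the subsets was tested as an interaction, which is also the test of the subset difference between the genotypes. Of the 37 genes, 1 was called, on the higher side (0.221% of all genes were called higher and 0.338% lower). Edem2, a mannosidase-like factor that starts glycoprotein degradation, lay at 7.66, 7.64, 7.71 and 7.73 in WT CD8+, 7.76, 7.96, 7.94 and 7.90 in Mst1/2-KO CD8+, 7.56, 7.63, 7.74 and 7.62 in WT CD8- and 7.41, 7.48, 7.40 and 7.36 in Mst1/2-KO CD8- DCs. The Mst1/2-KO arrays lay all above WT in CD8+ DCs and all below WT in CD8- DCs, a difference of the effects of 0.43 ± 0.09 (adjusted p = 0.049). This call held without any 1 of 3 of the 16 arrays and ended without any of the other 13 (adjusted p 0.0734 to 0.108). It also ended in 5 of 10 other settings (0.0511 to 0.087). The next smallest p values were those of Pdia5 (-0.94 ± 0.27, adjusted p = 0.144), Dnajb9 (0.43 ± 0.15, adjusted p = 0.308), Ero1a (-0.28 ± 0.13, adjusted p = 0.518) and Ddit3 (0.58 ± 0.29, adjusted p = 0.573). For Pdia5 the call appeared without CD8- Mst1/2-KO array 2 (-1.15 ± 0.21, adjusted p = 0.0162) or without CD8- WT array 1 (-1.13 ± 0.23, adjusted p = 0.0233). The median standard error of these differences over the 37 genes was 0.13.

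**Figure D3:**
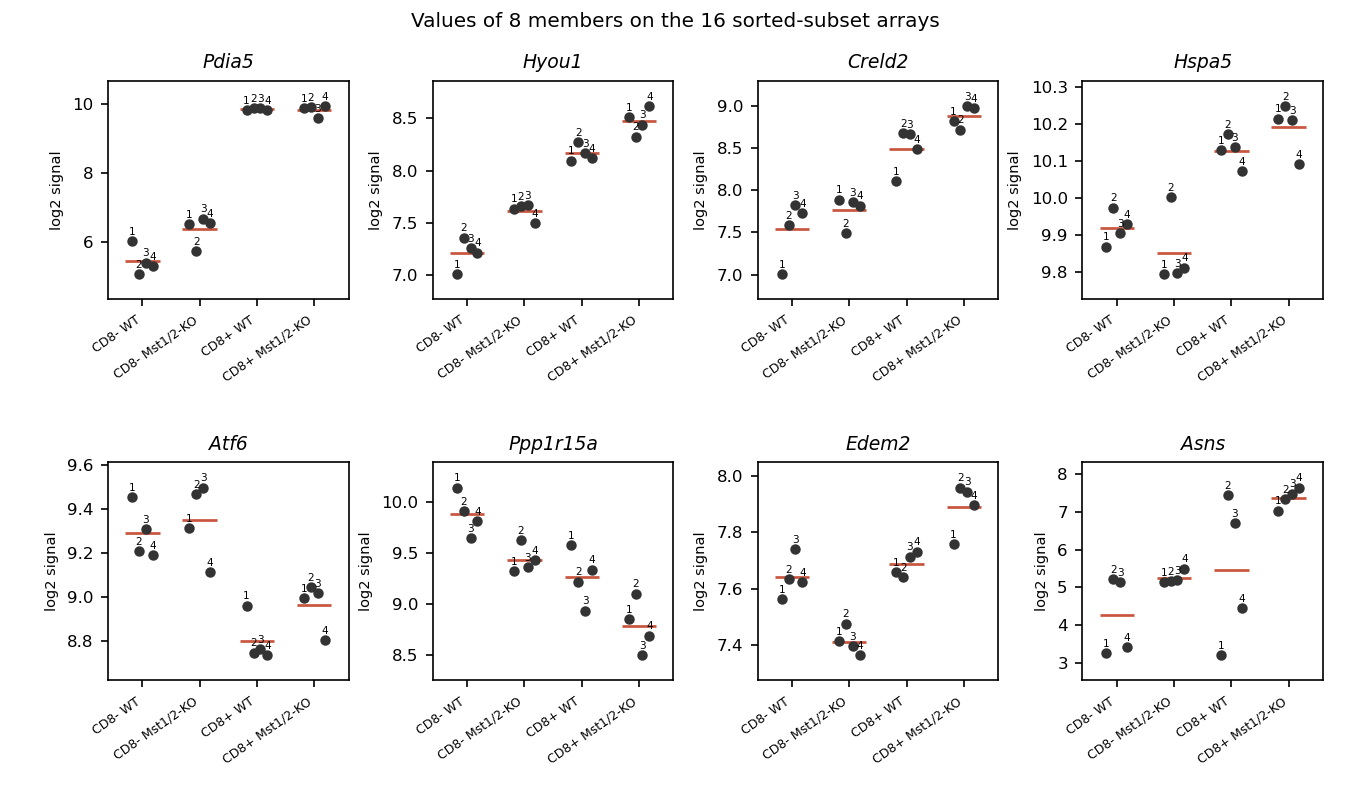
Log2 signal of 8 genes on each of the 16 sorted-subset arrays (points, with replicate numbers) by group, with group means as lines and a separate vertical axis for each gene. Pdia5, Hyou1, Creld2 and Hspa5 are higher in CD8+ than in CD8- DCs on every array, Atf6 and Ppp1r15a are lower on every CD8+ array than on any CD8- array of the same genotype, Edem2 parts the genotypes in opposite directions, and Asns is low on WT arrays 1 and 4 of both subsets.

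Loss of Mst1/2 changed 5 of the 37 genes in CD8- DCs, 3 higher (3.9% of all genes) and 2 lower (2.79% of all genes). The 3 that rose were Pdia5, Hyou1 and Pdia6, which were also higher in CD8+ than in CD8- DCs. The 2 that fell were Dnajb9 and Edem2. With so few genes called, these are results about the named genes, and nothing is read from them about the set. The median change was 0.10 (0.002 over all genes), and 27 of the 37 changes were above 0 (50.37% over all genes). Groups did not overlap for 6 genes on the higher side (6.52% of all genes) and 5 on the lower side (5.46% of all genes).

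Pdia5 lay at 6.52, 5.74, 6.68 and 6.55 on the Mst1/2-KO CD8- arrays and at 6.02, 5.09, 5.41 and 5.30 on the WT CD8- arrays. It rose by 0.92 ± 0.19, or 1.89-fold (adjusted p = 0.00605), with overlap between Mst1/2-KO array 2 and WT array 1. Hyou1 lay at 7.63, 7.66, 7.67 and 7.49 against 7.01, 7.36, 7.26 and 7.21, with no overlap, and rose by 0.40 ± 0.09 (adjusted p = 0.00727). Pdia6 lay at 8.45, 8.44, 8.61 and 8.59 against 7.71, 8.17, 8.28 and 8.04, again with no overlap, and rose by 0.47 ± 0.11 (adjusted p = 0.0159). Without Mst1/2-KO array 3 or 4 the adjusted p of Pdia6 was 0.0509 or 0.0547. Dnajb9 lay at 9.28, 9.24, 9.25 and 8.97 against 9.995, 9.53, 9.49 and 9.53 and fell by 0.45 ± 0.11 (adjusted p = 0.0158). WT array 1 was the highest for Dnajb9 and Mst1/2-KO array 4 the lowest, and without that Mst1/2-KO array the call ended (-0.38 ± 0.11, adjusted p = 0.0659), as it did when only the 2 compared groups were fitted (0.0651). Edem2 lay at 7.41, 7.48, 7.40 and 7.36 against 7.56, 7.63, 7.74 and 7.62 and fell by 0.23 ± 0.07 (adjusted p = 0.0495), a call that ended without any of Mst1/2-KO arrays 1, 3 and 4 or WT arrays 2, 3 and 4 (adjusted p 0.0903 to 0.145), with only the compared groups (0.105), with every probe set tested (0.071) and with a trended, robust variance (0.057). The count of 5 fell to 3 without Mst1/2-KO array 3 and to 2 without Mst1/2-KO array 4.

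Further genes passed the test in CD8- DCs under other settings only. Sec61b rose and passed with the mean of both its probe sets (0.28 ± 0.07, adjusted p = 0.0283). Its dimmer probe set (mean signal 4.21) changed by 0.43 ± 0.09. The brighter one, used in the main fit, was not called and lay at 10.38, 10.08, 10.33 and 10.20 against 10.15, 10.125, 10.05 and 10.15. The genes that fell, with their values in the main fit, were Herpud1 (-0.30 ± 0.10, adjusted p = 0.0728), Ddit3 (-0.63 ± 0.20, adjusted p = 0.0778), Ppp1r15a (-0.44 ± 0.14, adjusted p = 0.0795) and Chac1 (-0.45 ± 0.17, adjusted p = 0.141). Herpud1, Ppp1r15a and Chac1 did not overlap between the genotypes, and Ddit3 did. The other settings included, for Herpud1, cyclic loess (adjusted p = 0.0481), and for Ddit3, array weights (0.0274) and leaving out Mst1/2-KO array 2 (-0.81 ± 0.20, adjusted p = 0.0193). With only the compared groups, Ppp1r15a (0.049) and Chac1 (0.0138) passed. BiP itself gave no call, Hspa5 having a change of -0.07 ± 0.07 (adjusted p = 0.693).

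Markers moved with genotype in the CD8- sort. Of 13 CD8+ DC markers 8 rose and 1 fell, their mean being 7.75 to 8.25 on Mst1/2-KO and 7.29 to 7.81 on WT arrays, and 6 of 13 CD8- DC markers fell. Cd8a averaged 7.37 against 6.69 (adjusted p = 0.0556). Of 20 proliferation genes 17 rose, and of 11 plasmacytoid DC markers 5 rose and 1 fell. Of 9 B cell markers 4 fell, their mean being 5.10 to 5.33 on Mst1/2-KO and 5.56 to 5.81 on WT arrays. The mean of the immediate-early list was 9.18 to 9.70 against 9.68 to 9.89, and none of its 20 genes was called. Of the sex-linked genes, Xist averaged 6.94 on Mst1/2-KO and 6.91 on WT arrays. The Y-linked genes were lower at low signals, Eif2s3y at 5.18 against 5.99, Kdm5d at 4.27 against 4.98 and Uty at 4.49 against 4.83. The sex of the mice was not read from these values. The part of these shifts in the changes of Pdia5, Hyou1, Pdia6, Dnajb9 and Edem2 was not tested.

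In CD8+ DCs loss of Mst1/2 changed none of the 37 genes by the test, limma calling 0.234% of all genes higher and 0.654% lower. At an unadjusted p under 0.05 there were 10 of the 37 and 2345 of the 22180 genes. Of the 37 changes, 28 were above 0 (51.53% over all genes) with a median of 0.10 (0.005 over all genes). The 37 genes shifted together by array. Their mean deviation from the mean of the sorted arrays was 0.06 on WT array 1 and 0.16 to 0.27 on the other WT arrays. On the Mst1/2-KO arrays it was 0.29 to 0.35. On the higher side 9 genes did not overlap between genotypes (3.3% of all genes), against 0 on the lower side (3.03% of all genes). These 9 were Hsp90b1, Hyou1, Dnajc3, Sdf2l1, Creld2, Pdia3, Pdia6, Edem1 and Edem2. The 5 smallest p values were those of Hyou1 (0.31 ± 0.09, adjusted p = 0.113), Pdia6 (0.39 ± 0.11, adjusted p = 0.139), Ppp1r15a (-0.48 ± 0.14, adjusted p = 0.157), Edem2 (0.20 ± 0.07, adjusted p = 0.224) and Edem1 (0.25 ± 0.08, adjusted p = 0.25). Hyou1 lay at 8.51, 8.33, 8.44 and 8.62 in Mst1/2-KO and 8.10, 8.27, 8.17 and 8.12 in WT. Pdia6 lay at 9.23, 9.10, 9.18 and 9.35 against 8.60, 8.94, 8.96 and 8.80. For both, every Mst1/2-KO array was above every WT array. Pdia5, by contrast, lay at 9.87, 9.89, 9.58 and 9.93 against 9.81, 9.87, 9.88 and 9.80, a change of -0.02 ± 0.19. Without WT array 3, Chac1 passed the test at -0.59 ± 0.11 (adjusted p = 0.0151), from -0.36 ± 0.17 (adjusted p = 0.456) with it. Proliferation genes rose here too, 5 of 20, while 0 of 13 CD8+ DC markers were called.

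**Figure D4:**
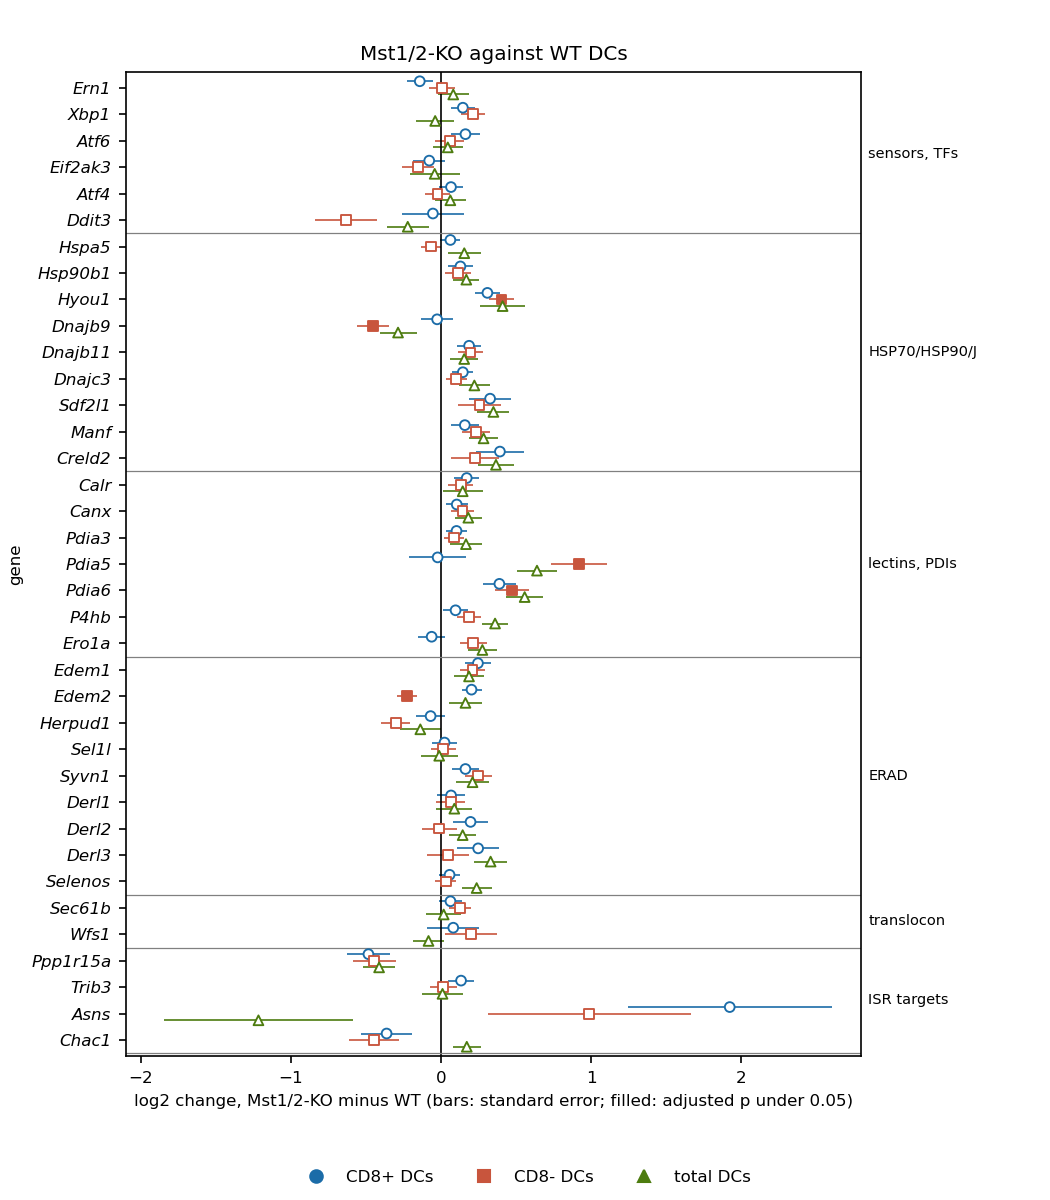
Log2 change from WT to Mst1/2-KO for each of the 37 genes (rows, by role) in CD8+ (circles), CD8- (squares) and total DCs (triangles), with standard errors as bars and filled symbols for an adjusted p under 0.05. The filled symbols are 5 squares, Hyou1, Pdia6, Manf, Sdf2l1 and Creld2 lie to the right of 0 in each cell set, Ppp1r15a to the left in each, and Asns has the widest bars.

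Total DCs were compared in an experiment of their own. None of the 37 genes was called in Mst1/2-KO against WT by limma (0.316% of all genes were called higher and 0.532% lower, so 37.2% of the calls were higher, against 25.3% with cyclic loess), and 12 had an unadjusted p under 0.05, as did 2928 of the 22180 genes. Of the 37 changes 28 were above 0 (50.73% over all genes) with a median of 0.16 (0.003 over all genes). Groups did not overlap for 13 genes on the higher side (8.26% of all genes) and 1 on the lower side (5.49% of all genes). The 5 smallest p values were those of Pdia5 (0.64 ± 0.13, adjusted p = 0.0611), Pdia6 (0.56 ± 0.13, adjusted p = 0.0801), P4hb (0.36 ± 0.09, adjusted p = 0.0967), Ppp1r15a (-0.41 ± 0.11, adjusted p = 0.123) and Sdf2l1 (0.35 ± 0.11, adjusted p = 0.182). Pdia5 lay at 8.47, 8.24 and 8.16 on the 3 Mst1/2-KO arrays and 7.64, 7.94, 7.52 and 7.51 on the 4 WT arrays. Pdia6 lay at 9.003, 9.22 and 8.94 against 8.26, 8.67, 8.44 and 8.62 and P4hb at 9.32, 9.40 and 9.30 against 8.92, 9.01, 9.002 and 8.98. For these 3 isomerases every Mst1/2-KO array was above every WT array. With a trended, robust variance all 3 passed the threshold (adjusted p = 0.033 for Pdia5, 0.0382 for Pdia6 and 0.0342 for P4hb), and Pdia5 passed it without WT array 2 (0.74 ± 0.12, adjusted p = 0.0382). Ppp1r15a lay at 9.12, 9.16 and 9.33 against 9.71, 9.63, 9.70 and 9.42, lower on every Mst1/2-KO array. The mean of the CD8+ DC markers moved the same way as Pdia5, from 8.96 to 9.43 on WT to 9.48 to 9.55 on Mst1/2-KO arrays, and that of the CD8- DC markers from 7.26 to 7.63 to 6.70 to 7.15. The mean of the proliferation genes was 7.25 to 7.70 on WT and 7.81 to 8.004 on Mst1/2-KO arrays. The part of these shifts in the changes of the isomerases was not tested.

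The genes with an ERSE match can be followed through these comparisons. Of the 9, 8 rose from CD8- to CD8+ DCs in WT and 8 in Mst1/2-KO, Canx being the exception in both, with a median change of 0.56 in WT. Of the 24 measured genes with a window and no match, 12 rose and 2 fell in WT, with a median of 0.29, and 16 rose and 1 fell in Mst1/2-KO. Over all genes 11% rose and 10% fell in WT, and 9.93% rose and 9.3% fell in Mst1/2-KO. In Mst1/2-KO against WT all 9 changes were above 0 in CD8+ DCs (0.06 to 0.39) and in total DCs (0.14 to 0.56), where 15 of the 24 others were above 0 in each case. Over all genes 51.53% of changes were above 0 in CD8+ DCs and 50.73% in total DCs. None of the 9 was called in those 2 comparisons, where 0.234% and 0.316% of all genes were called higher. In CD8- DCs 8 of the 9 were above 0 (-0.07 to 0.47) and 1, Pdia6, was called, with 15 of the 24 others above 0. Over all genes 50.37% were above 0 there and 3.9% were called higher. In the p38 comparison 1 of the 9 and 8 of the 24 others were above 0, with medians of -0.19 and -0.08, where 50.75% of all genes were above 0. These counts describe the genes, which were not drawn at random, and no test was made of them.

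Asns stood apart because its arrays within a group fell into separate levels. In WT it lay at 3.20, 7.45, 6.71 and 4.46 on CD8+ arrays 1 to 4 and at 3.26, 5.21, 5.14 and 3.42 on CD8- arrays 1 to 4, so arrays 1 and 4 were low and arrays 2 and 3 high in both subsets. In Mst1/2-KO it lay at 7.03, 7.35, 7.49 and 7.65 in CD8+ and 5.13, 5.17, 5.19 and 5.50 in CD8- DCs, with no low array. In total DCs the low arrays were in the other genotype, 3.95, 3.51 and 6.72 in Mst1/2-KO against 5.51, 6.15, 5.80 and 6.32 in WT. The genotype changes were 1.92 ± 0.68 (adjusted p = 0.27) in CD8+, 0.99 ± 0.68 (adjusted p = 0.512) in CD8- and -1.22 ± 0.63 (adjusted p = 0.465) in total DCs, none of them called, and without Mst1/2-KO array 3 that of total DCs was -2.21 ± 0.23 (adjusted p = 0.00793). The labels do not say whether equal numbers of the 2 subsets mark paired arrays. With the number as a block within genotype, the rise of Asns from CD8- to CD8+ DCs in WT was 1.20 ± 0.26 (adjusted p = 0.00569), against 1.20 ± 0.68 (adjusted p = 0.268) without that block. Asns had no such low arrays in Mst1/2-KO. The rise in WT also passed without CD8+ array 1 (1.95 ± 0.56, adjusted p = 0.0197).

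In experiment 1, loss of p38 on the Rag1-KO background after anti-CD40 changed none of the 37 genes, and limma called 0% of all genes in either direction (1866 of 22180 genes and 10 of the 37 had an unadjusted p under 0.05). Of the 37 changes 26 were below 0, with a median of -0.10. Over all genes 50.75% of changes were above 0, with a median of 0.001. Groups did not overlap for 10 genes on the lower side (3.6% of all genes) and 1 on the higher side, Atf6 (3.89% of all genes). The 10 were Ddit3, Hspa5, Hsp90b1, Dnajb11, Creld2, Calr, Sel1l, Syvn1, Ppp1r15a and Chac1, 5 of them with an ERSE match. Hspa5 lay at 9.87, 9.94 and 9.86 on the 3 p38-KO arrays and 10.09, 10.09, 10.24 and 10.06 on the 4 others, a change of -0.23 ± 0.06 (adjusted p = 0.42), the smallest p of the 37. Creld2 lay at 7.89, 7.92 and 8.07 against 8.16, 8.20, 8.47 and 8.44, a change of -0.36 ± 0.10 (adjusted p = 0.476). Sel1l lay at 7.77, 7.83 and 7.98 against 8.15, 8.04, 8.38 and 8.20, a change of -0.33 ± 0.09 (adjusted p = 0.483). In each of these the p38-KO arrays were all the lower ones. Chac1 lay at 5.12, 4.99 and 4.53 against 5.58, 5.51, 5.16 and 5.402 (-0.53 ± 0.16, adjusted p = 0.519), and Ddit3 at 8.04, 7.85 and 7.97 against 8.06, 8.25, 8.23 and 8.15 (-0.22 ± 0.07, adjusted p = 0.54).

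**Figure D5:**
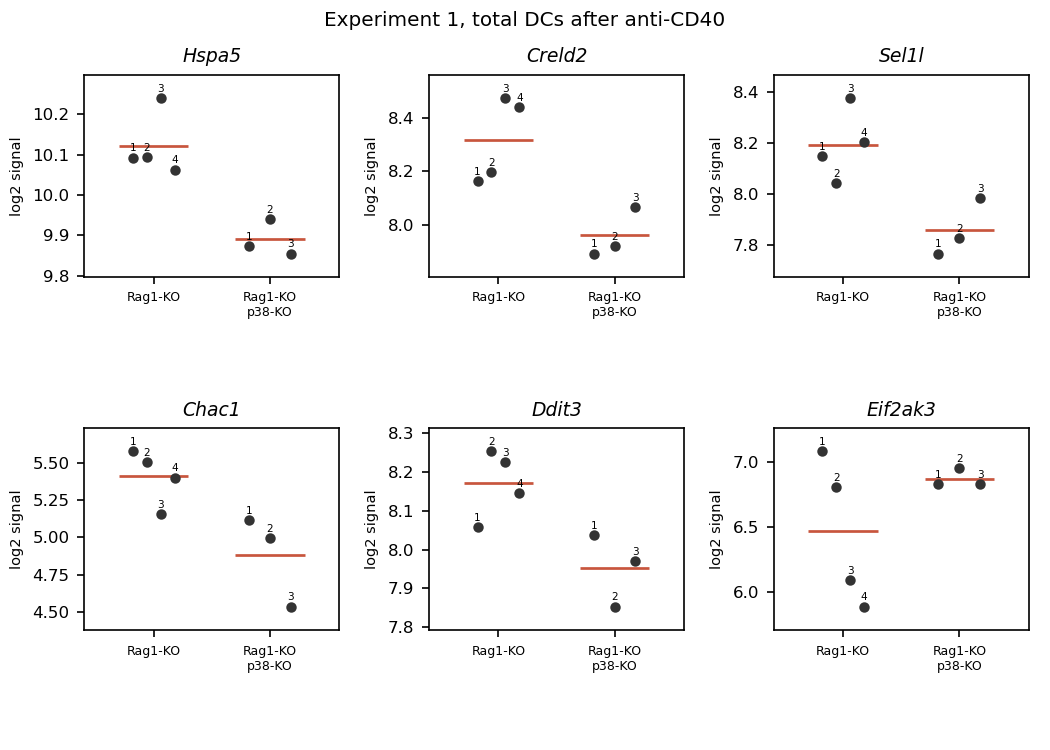
Log2 signal of 6 genes on the 4 Rag1-KO and 3 Rag1-KO and p38-KO arrays of experiment 1 (points, with replicate numbers), with group means as lines and a separate vertical axis for each gene. The p38-KO arrays lie below the others for Hspa5, Creld2, Sel1l, Chac1 and Ddit3 by small steps, and Eif2ak3 splits the Rag1-KO arrays into 1 and 2 against 3 and 4.

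The Rag1-KO arrays of experiment 1 differed among themselves, in the sensors and in other genes. Eif2ak3 lay at 7.08, 6.81, 6.10 and 5.89 on arrays 1 to 4 and at 6.83, 6.96 and 6.83 in the p38-KO group, and Ern1 at 7.91, 7.59, 7.17 and 7.15 against 7.56, 7.60 and 7.56. Arrays 1 and 2 were high and arrays 3 and 4 low for both sensors. Atf6 split the same way, at 9.16, 9.19, 8.70 and 8.91 against 9.30, 9.21 and 9.24 in the p38-KO group. Other genes were low on arrays 1 and 2 and high on 3 and 4, among them Calr, Canx and Derl2. Calr lay at 10.49, 10.53, 10.79 and 10.77 against 10.43, 10.32 and 10.41. Derl2 lay at 8.56, 8.805, 9.32 and 9.23 against 8.88, 8.97 and 9.17. The part of this split in the p38 comparison was not tested. Neutrophil markers moved with the comparison, the mean of 10 being 3.62 to 5.13 on p38-KO and 5.54 to 6.54 on the other arrays, and its part in the results was not tested.

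Experiment 2 has a lone array in 2 of its 3 groups, which was taken to vary like the arrays of experiments 1 and 2 together. Anti-CD40 on Rag1-KO DCs changed none of the 37 genes by limma (0.0271% of all genes called higher and 0.00902% lower, 3 of the 37 and 2908 of all genes with an unadjusted p under 0.05), with a median change of -0.02. The 5 smallest p values were those of Wfs1 (-0.40 ± 0.09, adjusted p = 0.139), Ddit3 (-0.47 ± 0.12, adjusted p = 0.162), Herpud1 (0.39 ± 0.11, adjusted p = 0.21), Sec61b (0.25 ± 0.12, adjusted p = 0.417) and Dnajb9 (-0.36 ± 0.19, adjusted p = 0.465). Hspa5 lay at 10.06 and 10.07 on the stimulated arrays and 10.09 on the non-stimulated one. Rag1-KO against WT after anti-CD40 also changed none of the 37 (0.243% of all genes called higher and 0.122% lower, 2 of the 37 and 3113 of all genes with an unadjusted p under 0.05), with a median of 0.00. The 5 smallest p values were those of Xbp1 (0.36 ± 0.09, adjusted p = 0.145), Wfs1 (-0.26 ± 0.09, adjusted p = 0.256), Sdf2l1 (-0.39 ± 0.20, adjusted p = 0.419), Atf4 (0.24 ± 0.12, adjusted p = 0.426) and Chac1 (0.48 ± 0.25, adjusted p = 0.436). Xbp1 lay at 8.36 and 8.23 in Rag1-KO and 7.93 in WT, and these groups share the stimulated Rag1-KO arrays.

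Other genes of the secretory pathway, 154 measured in 7 lists, were read beside the 37. From CD8- to CD8+ DCs, 11% of all genes rose and 10% fell in WT, and 9.93% rose and 9.3% fell in Mst1/2-KO. Each list count in this and the next 2 paragraphs stands beside these shares. N-glycosylation and glycoprotein quality control was the most one-sided: in CD8+ against CD8- DCs 17 of 22 genes rose and none fell in WT, and 15 of 22 rose and none fell in Mst1/2-KO. Man1b1, an ER mannosidase, led in both (1.03 ± 0.13 in WT and 0.64 ± 0.13 in Mst1/2-KO), followed by Dpagt1, the first enzyme of the lipid-linked sugar, in WT (0.92 ± 0.08) and Rpn1, an oligosaccharyltransferase subunit, in Mst1/2-KO (0.63 ± 0.11). In ER-to-Golgi transport 12 of 24 rose and none fell in each genotype, led by the COPII coat gene Sec24d (1.75 ± 0.15 in WT and 1.56 ± 0.15 in Mst1/2-KO) and by Preb, which loads that coat's GTPase (0.81 ± 0.07 and 0.95 ± 0.07). Of 23 genes of the translocon and signal peptide processing 13 rose and 2 fell in WT and 14 rose and 2 fell in Mst1/2-KO. Tram2 rose by 1.21 ± 0.09 and 1.15 ± 0.09 and Sec63, the J-domain partner of the channel, by 0.82 ± 0.09 and 0.77 ± 0.09, while Ssr1 fell by 0.37 ± 0.06 and 0.19 ± 0.06 and Sec62 by 0.26 ± 0.07 and 0.28 ± 0.07.

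Of 25 other ER chaperones and oxidoreductases 14 rose and 2 fell in WT, and 9 rose and 2 fell in Mst1/2-KO. Nucb2 rose by 1.45 ± 0.12 in WT and 1.12 ± 0.12 in Mst1/2-KO, Txndc5, a disulfide isomerase, by 1.02 ± 0.14 in WT, and Ero1b, the second oxidase, by 0.72 ± 0.11 in Mst1/2-KO. Tmx4 fell by 0.68 ± 0.09 and 0.43 ± 0.09 and Cnpy4 by 0.53 ± 0.11 and 0.48 ± 0.11. Other ERAD genes were mixed, 5 of 22 rising and 4 falling in WT and 2 rising and 2 falling in Mst1/2-KO. Vcp, the p97 extractor, rose by 0.45 ± 0.07 and 0.37 ± 0.07, Rnf139 rose by 0.45 ± 0.16 in WT (adjusted p = 0.05, just under the threshold before rounding) and Ufd1, a p97 cofactor, by 0.36 ± 0.07 in Mst1/2-KO. Ubac2 fell by 0.90 ± 0.09 and 0.47 ± 0.09 and the ligase gene Marchf6 by 0.60 ± 0.07 and 0.23 ± 0.07.

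Among 13 further sensors and transducers 4 rose in WT, and 4 rose and 1 fell in Mst1/2-KO. Rtcb, the ligase that joins the cut Xbp1 message, rose by 0.82 ± 0.06 in WT and 0.64 ± 0.06 in Mst1/2-KO, Creb3 rose by 0.63 ± 0.09 in WT, Creb3l2 rose by 0.81 ± 0.12 in Mst1/2-KO and Nfe2l2 fell there by 0.86 ± 0.23. The 25 further targets of the integrated stress response split evenly, 6 rising and 6 falling in WT and 7 and 7 in Mst1/2-KO. In WT Ppp1r15b (0.68 ± 0.14) and Gars (0.63 ± 0.10) rose and the cystine transporter gene Slc7a11 (-2.37 ± 0.28) and Ddit4 (-1.94 ± 0.27) fell. In Mst1/2-KO Gpt2 (0.74 ± 0.15) and Shmt2 (0.65 ± 0.14) rose and Ddit4 (-2.60 ± 0.27) and Nupr1 (-1.57 ± 0.18) fell. The adjusted p of all genes named here for CD8+ against CD8- DCs was at most 0.05.

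Loss of Mst1/2 was read in these 154 genes too. Over all genes, limma called 3.9% higher and 2.79% lower in CD8- DCs. These shares were 0.234% and 0.654% in CD8+ DCs and 0.316% and 0.532% in total DCs. In CD8- DCs 4 of 25 integrated stress response targets rose and 2 fell: Gars (0.63 ± 0.10), a tRNA synthetase gene, and Psat1 (0.60 ± 0.17), an enzyme of serine synthesis, rose, and Slc7a11 (-1.06 ± 0.28) and Sesn2 (-0.63 ± 0.08) fell. The other lists gave Ssr2 (0.25 ± 0.07), 3 of 22 glycosylation genes including Dpagt1 (0.51 ± 0.08) and Rpn1 (0.48 ± 0.11), 3 of 25 chaperones and oxidoreductases including Txndc5 (0.51 ± 0.14) and Fkbp2 (0.46 ± 0.07), and 2 of 24 transport genes, Kdelr2 (0.36 ± 0.09) and Tmed2 (0.25 ± 0.07), as rises, and the ERAD genes Ubac2 (-0.52 ± 0.09) and Marchf6 (-0.39 ± 0.07) as falls. In CD8+ DCs Creb3l2 (0.65 ± 0.12, adjusted p = 0.0113), an ER-anchored transcription factor, and Shmt2 (0.66 ± 0.14, adjusted p = 0.0295) rose and no other was called. In total DCs Psat1 (0.65 ± 0.10), Gars (0.59 ± 0.10) and Rpn1 (0.46 ± 0.09) rose and Slc7a11 (-1.13 ± 0.20) fell. In the interaction and in the comparisons of experiments 1 and 2 none of the 154 was called.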

How the data were processed

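Gene expression was read on 34 arrays of sorted mouse spleen DCs. The deposited values are log2 signals of 41155 probe sets made by the authors with RMA in Partek 6.6, per the submitters' processing notes, and the annotation release behind them is not given in the sources used here. Probe sets annotated to 1 gene were kept, the brightest over all arrays where a gene had several, which left 22180 genes and 37 of the 38 described. No read depth exists for arrays, and their number limits the precision. The authors' normalization left each probe set with the same mean in experiment 1 and in the sorted arrays (largest gap 9.29e-09), so levels were compared only within an experiment.

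Differences were tested with limma 3.58.1 (lmFit, eBayes) in R 4.3.3, with 1 mean per group, no block and Benjamini-Hochberg adjustment over all 22180 genes; errors are standard errors of the fit, and the fits were tested on simulated data. The 16 sorted arrays shared 1 fit, the 7 arrays of total DCs and the 7 of experiment 1 had a fit each, and experiment 2 was fitted with experiment 1 (11 arrays). The labels do not say what equal replicate numbers mark, so they were checked by the correlation of deviations from the group means. Between CD8+ and CD8- arrays r was 0.126 to 0.337 in WT and 0.093 to 0.213 in Mst1/2-KO. The same number was the best match in 4 of 4 pairs in each genotype. In experiment 1 r was 0.093 to 0.162, the same number being best in 3 of 3 pairs. Between the genotypes r was -0.071 to 0.13, and the same number was not always best. Only the WT subsets passed 0.1 for every pair. All called genes were named, up to 12 with the largest change with every array, and where fewer than 3 were called also the 5 with the smallest p; of each pathway list up to 2 called genes per direction were named. Values of other genes, and the ERSE stretches beyond 4 genes, were added after their values were seen. Promoter windows and sequences are those of RefSeq for GRCm38.p6. Alternatives were other normalizations, gene filters, variance models, blocks, and leaving out each array; the block within genotype and leaving out both WT arrays numbered 1 were chosen after seeing the data. The genes and lists were chosen with earlier results of these data known.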

Additional observations from a re-analysis of the deposited data

Results flagged for a closer look

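In 21 of 222 sets of 4 arrays (37 genes in 6 groups), 1 array lay apart from the other 3 by Dixon's criterion at the 95% level, where chance gives about 5%. Values are log2 signals, with the range of the other 3 arrays after each. In Mst1/2-KO CD8- DCs the arrays apart were those of Atf4 on array 2 (10.4742, others 10.36 to 10.38), Hspa5 on array 2 (10.0026, others 9.80 to 9.81), Dnajb9 on array 4 (8.9695, others 9.24 to 9.28), Pdia5 on array 2 (5.7444, others 6.52 to 6.68), Derl3 on array 2 (4.2177, others 4.50 to 4.52) and Asns on array 4 (5.4995, others 5.13 to 5.19). In WT CD8- DCs the arrays apart were those of Dnajb9 on array 1 (9.9954, others 9.49 to 9.53), Herpud1 on array 1 (10.2147, others 9.79 to 9.84) and Derl2 on array 1 (8.4776, others 8.85 to 8.90). In Mst1/2-KO CD8+ DCs the arrays apart were those of Pdia5 on array 3 (9.5808, others 9.87 to 9.93) and Derl3 on array 2 (5.6344, others 5.06 to 5.06). In WT CD8+ DCs the arrays apart were those of Atf6 on array 1 (8.9602, others 8.73 to 8.76), Sdf2l1 on array 1 (8.1147, others 8.69 to 8.71) and Pdia3 on array 3 (10.6905, others 10.56 to 10.58). In stimulated Rag1-KO DCs of experiment 1 the arrays apart were those of Hspa5 on array 3 (10.2397, others 10.06 to 10.09), Pdia5 on array 3 (7.2668, others 7.86 to 7.97), Ero1a on array 4 (8.1588, others 7.98 to 7.99), Edem2 on array 1 (7.4434, others 7.68 to 7.72), Selenos on array 4 (9.7366, others 9.61 to 9.62) and Wfs1 on array 2 (5.1942, others 5.25 to 5.25). For Wfs1 the other 3 values were equal, at 5.2487, so any differing value would meet the criterion. In WT total DCs the arrays apart were those of Xbp1 on array 3 (8.5824, others 8.10 to 8.18). The effect of losing Mst1/2 on Edem2 differed between the subsets by 0.4319 (CD8+ minus CD8-, SE 0.09, limma, adjusted p = 0.049), with all Mst1/2-KO arrays higher in CD8+ and all lower in CD8- DCs.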

How the results depend on the processing

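Of 59 results called for single genes, 0 changed direction under any alternative run, 61 of 480 values with 1 array left out lost the call (13 results), and 27 of 615 values under other settings did (10 results). Counts over all genes and over the 37 moved as follows, and the cause was not tested. For the interaction, the number of the 37 called was 0 with cyclic loess, with every probe set tested, with the replicate block by number and with the replicate block within genotype, and 2 with array weights (0 to 2 with 1 array left out). Over all genes it was 63 with every probe set, 222 with array weights, 211 with the block within genotype and 253 without both WT arrays numbered 1 (79 to 259 with 1 array left out), against 124. For total DCs, 1 of the 37 was called with genes above the median only and 3 with a trended, robust variance (0 to 1 with 1 array left out), and over all genes 296, 29 (every probe set), 340 (trended variance) and 108 (replicate block) against 188 (39 to 169 with 1 array left out). In CD8+ DCs the genotype comparison gave 0 to 1 of the 37 and 114 to 209 genes with 1 array left out, and 123 genes with only the compared groups, against 197. In CD8- DCs it gave 2 to 6 of the 37 and 918 to 1533 genes with 1 array left out. Equal numbers of the 2 genotypes correlated little in CD8- DCs (r 0.013 to 0.086). With the replicate block by number, the fall of Edem2 in CD8- DCs was not called (adjusted p = 0.0563) and those of Herpud1 (0.0408), Ddit3 (0.0354) and Ppp1r15a (0.0256) were. The replicate block within genotype gave 25 of the 37 in WT and 28 in Mst1/2-KO for CD8+ against CD8- DCs. For anti-CD40 in experiment 2 the count over all genes was 1 above the median, 17 with trended variance and 4 with array weights (1 to 136 with 1 array left out). For Rag1-KO against WT it was 4 above the median, 243 with every probe set and 44 with array weights (44 to 234 with 1 array left out).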
